A study of Mus musculus with 3 samples.

Results

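Chemokine and chemokine receptor genes were taken as the protein-coding RefSeq genes of the mouse assembly mm10 whose symbols begin with Ccl, Cxcl, Ccr or Cxcr and a number. The rule found 54 of 21887 nuclear protein-coding genes, 37 of them ligands and 17 receptors. The ligand gene Ccl21c lies on a scaffold outside the assembled chromosomes, so 53 members (36 ligands and 17 receptors) were analysed, beside 21774 placed protein-coding genes. The data were 3 CUT&Tag libraries, numbered as replicates of 1 group, from sorted mouse bone marrow LSK cells. These lack lineage markers, carry Sca-1 and Kit, and include the stem cells of the blood together with young progenitors. CUT&Tag sends a transposase to a protein on chromatin through an antibody, so that DNA near the protein is cut and tagged for sequencing. Per the series design, the N-terminus of Bcl11a, which encodes a zinc finger repressor of transcription, carried a 3xFlag knock-in. The genotype label of all 3 samples reads wildtype, and the labels give no strain, age, treatment or number of animals. No untagged library was analysed here, so signal of the tagged protein and tagging of open chromatin cannot be told apart. LSK cells are a mixture, and strong signal in few cells and weak signal in many cannot be told apart either.

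Chemokines are small secreted proteins that draw cells along a gradient through receptors that signal by G proteins. Some ligands are made constantly and direct cells to a niche or a lymphoid organ, and others are induced in inflammation. Cxcr4, the receptor of Cxcl12, holds blood stem cells in the marrow. Ccr9 and Ccr7 take part in the passage of progenitors to the thymus, where stromal cells make Ccl25, the ligand of Ccr9, and Ccl19 and Ccl21, the ligands of Ccr7. In the mouse many of these genes stand in clusters of neighbouring copies.

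Overlapping peaks of the libraries were joined into regions, and regions to which every library gave a peak are termed reproducible. A gene is called occupied when a reproducible region comes within 1 kb of either of its outer ends. A region is distal when its summit, the point of highest signal, lies more than 1 kb from every gene end. It is assigned to the protein-coding gene with the nearest end within 100 kb. The strength of a peak is given as the authors' fold enrichment, a ratio of the fragments over the summit (the pileup) to the local background of the same library. A total of 50 of the 22987 reproducible regions belonged to the members, 12 at ends and 39 distal, of which 1 counted in both ways. The libraries held 38731, 36459 and 43462 peaks on the chromosomes, and their median pileups were 14, 18 and 20 fragments. Of the genes for Kit and Sca-1, which the sorted cells carry, Kit was occupied and Ly6a, which encodes Sca-1, was not. Among other genes listed for these cells, Flt3 and Cd34 were occupied and Slamf1 was not. Of marker genes of other cells, 0 of 4 T cell, 1 of 3 B cell (Cd79a), 0 of 4 myeloid and 0 of 4 stromal and endothelial genes were occupied. Of all protein-coding genes 45.5% were. A distal region was nearest to 0, 1, 1 and 3 of these marker genes in the same order, and to 28.5% of all protein-coding genes. These lists are too short to tell cell types apart.

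The promoters on which the results turn are shown first, as the 250 bases before the listed RefSeq start (GRCm38.p6, the assembly behind mm10). A reproducible region covered those of Cxcr4, Cxcr3, Ccl3, Cxcl2 and Ccl25, and none covered that of Ccr9, which is given for contrast. Ccl25 has a further listed start, whose window (chr8:4349338-4349587) was not covered and is not shown. Each is written 5′ to 3′ on the gene's own strand. Capitals mark matches, on either strand, to 5 short motifs: TGACCA, bound by BCL11A, AGATAA of GATA factors, GGAAGT of ETS factors, TGTGGT of RUNX factors and CACCC of KLF factors.
Cxcr4, chr1:128592300-128592549, minus strand: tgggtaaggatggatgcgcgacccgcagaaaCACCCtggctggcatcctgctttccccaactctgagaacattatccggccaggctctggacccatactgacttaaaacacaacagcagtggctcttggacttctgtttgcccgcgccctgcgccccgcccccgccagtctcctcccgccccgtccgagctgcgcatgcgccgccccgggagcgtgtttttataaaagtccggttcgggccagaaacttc
Cxcr3, chrX:101734148-101734397, minus strand: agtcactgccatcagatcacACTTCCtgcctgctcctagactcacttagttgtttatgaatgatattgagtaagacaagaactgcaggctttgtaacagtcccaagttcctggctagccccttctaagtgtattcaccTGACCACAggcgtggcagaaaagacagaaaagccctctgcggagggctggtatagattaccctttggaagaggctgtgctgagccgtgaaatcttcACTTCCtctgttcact
Ccl3, chr11:83649379-83649628, minus strand: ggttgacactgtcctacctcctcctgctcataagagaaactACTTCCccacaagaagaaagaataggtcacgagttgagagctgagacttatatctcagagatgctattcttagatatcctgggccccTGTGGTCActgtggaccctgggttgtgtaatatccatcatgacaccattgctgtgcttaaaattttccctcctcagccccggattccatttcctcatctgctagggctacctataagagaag
Cxcl2, chr5:90903649-90903898, plus strand: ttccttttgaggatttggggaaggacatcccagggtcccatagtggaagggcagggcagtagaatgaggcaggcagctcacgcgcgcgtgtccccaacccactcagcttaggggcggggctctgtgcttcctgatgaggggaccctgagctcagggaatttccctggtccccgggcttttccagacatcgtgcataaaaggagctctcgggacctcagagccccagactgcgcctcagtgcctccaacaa
Ccl25, chr8:4324960-4325209, plus strand: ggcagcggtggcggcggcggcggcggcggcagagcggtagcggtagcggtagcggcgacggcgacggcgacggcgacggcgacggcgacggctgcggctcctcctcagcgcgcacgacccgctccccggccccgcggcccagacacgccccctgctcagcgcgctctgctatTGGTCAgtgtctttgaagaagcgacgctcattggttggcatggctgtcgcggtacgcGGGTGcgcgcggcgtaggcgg
Ccr9, chr9:123766961-123767210, plus strand: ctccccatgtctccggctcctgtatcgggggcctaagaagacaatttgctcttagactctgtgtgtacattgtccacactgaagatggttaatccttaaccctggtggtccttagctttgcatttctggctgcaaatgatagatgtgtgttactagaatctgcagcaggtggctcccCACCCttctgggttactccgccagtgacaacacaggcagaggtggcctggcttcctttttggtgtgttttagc

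The sequences fell into unlike types. The Ccl25 window shown held 45 CpG pairs and that of Cxcr4 19, whereas Ccl3 had 2, Cxcr3 3 and Ccr9 3. The uncovered window of Ccl25 held 0. TGACCA or its reverse was found in 7 of the 46 windows listed for members (15.2%), of which 3 were among the 8 covered windows and 4 among the 38 others. Among covered windows, TGACCA stood 112 bases before the start of Cxcr3, 120 before that of Ccl3 and 78 before the start of Ccl25 whose window is shown. The other covered windows, those of Cxcr4, Cxcl2, Ccl27a and Ccr1l1, held none. In Cxcr3 and Ccl3 it overlapped a TGTGGT match on the other strand, so that both held the same run of 8 bases, TGTGGTCA or its reverse. Among all 21263 promoter windows of protein-coding genes, 10.5% held TGACCA, 8.81% AGATAA, 20.4% GGAAGT, 12.4% TGTGGT and 54.2% CACCC. Over all genes TGACCA was about as frequent in the 8882 covered windows (10.02%) as in the 12381 others (10.93%). The split of TGACCA among member windows rests on few windows and was not tested. The Cxcl2 window matched none of the 5 motifs, which says only that these letters are not in it.

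Ends of the chemokine family were occupied less often than those of protein-coding genes in general. A reproducible region lay at an end of 12 of 53 members (22.6%), where 45.5% of all protein-coding genes were occupied. Ligands and receptors stood close together, with 8 of 36 (22.2%) and 4 of 17 (23.5%). The receptors were nearer to the general level when fewer libraries were asked for. With overlapping peaks of at least 2 libraries, 9 of 17 receptors (52.9%) and 12 of 36 ligands (33.3%) were occupied, against 51.8% of all genes. In single libraries the share was 41.2% ± 5.9 for receptors, 34.2% ± 1.62 for ligands and 52.4% ± 2.02 for all genes (SD, n = 3 libraries). The shares in libraries 1, 2 and 3 were 41.2%, 35.3% and 47.1% for receptors, beside 50.2%, 52.7% and 54.2% for all genes. The order of the 3 sets was thus the same in each library. No test was run between these sets, since genes are not samples and neighbouring members share regions.

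Away from gene ends the receptors stood above the ligands. At least 1 distal region was nearest to 10 of 17 receptors (58.8%) and to 13 of 36 ligands (36.1%), against 28.5% of all genes. The receptors had 22 distal regions, 1.29 per gene, the ligands 17, 0.472 per gene, and all protein-coding genes averaged 0.545. The stretch of sequence in which a distal region could fall to a gene had a median of 39.4 kb for receptors, 32.2 kb for ligands and 40.6 kb for all genes. Per Mb of that stretch there were 27.7 distal regions for receptors, 10.8 for ligands and 7.66 for all genes. In single libraries the number of distal peaks per gene was 2.12 ± 0.21 for receptors, 0.806 ± 0.048 for ligands and 1.07 ± 0.12 for all genes (SD, n = 3 libraries). The order of receptors and ligands was the same in each library, which says nothing of the variation between genes, and 2 receptors gave much of the gap. Ccr7 and Cxcr5 held 9 of the 22 regions, of which 2 lay inside Bcl9l, a neighbour of Cxcr5 with an end almost as near. Without Ccr7 and Cxcr5 the other 15 receptors had 0.867 per gene. These 2 genes were left out once their values were known. A distal region without an occupied end was found for 19 of 53 members (35.8%), against 11.6% of all genes. Counting ends and distal regions, 19 ligands (52.8%) and 12 receptors (70.6%) had at least 1 reproducible region, 31 of 53 members (58.5%), against 57% of all genes.

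**Figure D1:**
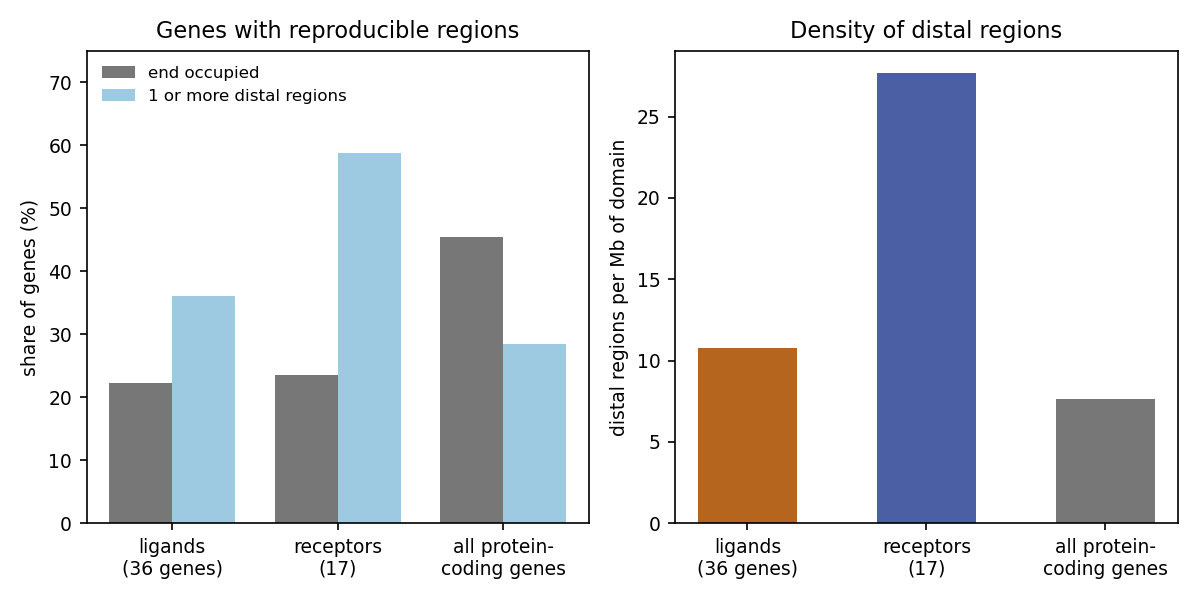
Left, share of genes (%) with an occupied end (grey) and with at least 1 distal region (blue) for 36 ligands, 17 receptors and 21774 protein-coding genes. Right, distal regions per Mb of the sequence nearest to each set. Both sets had lower end bars than all genes (22.2% and 23.5% against 45.5%), and receptors had the highest density of distal regions, 27.7 per Mb.

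Among receptors, Cxcr4 had the fullest set of regions around its start. The gene (chr1:128588199-128592299) is transcribed from its higher-coordinate end. A region of 745 bp over the start (chr1:128592023-128592767) had its summit 166 bp before it, within the promoter shown above. Its fold enrichment was 8.57, 6.82 and 6.73 in libraries 1, 2 and 3, from pileups of 47, 51 and 59 fragments, a mean of 7.37 ± 1.04 (SD, n = 3). Inside the gene, 1232 bp past the start, a further region (chr1:128590757-128591552) had 8.37, 7.62 and 7.26, from 45, 55 and 61 fragments. These regions differed by less than the spread between libraries. The strongest lay 22.7 kb before the start (chr1:128614378-128615697), outside any protein-coding gene. There the fold enrichment was 11.0, 9.75 and 9.82, from 55, 68 and 85 fragments, a mean of 10.2 ± 0.72 (SD, n = 3). In each library it was above both regions at the gene. Cxcr4 stands far from other coding genes, with the end of Dars 175 kb from the start region. Beyond the reach of 100 kb, 3 more reproducible regions had Cxcr4 as their nearest gene, at 113.2, 120.6 and 195 kb before the start. The farthest of them (chr1:128786884-128787481) had a fold enrichment of 9.48, 9.98 and 12.1. Near Cxcr4 another 8 distal regions were not reproducible, 1 with peaks of 2 libraries and 7 with a peak of 1.

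Ccr9 had no peak of any library within 1 kb of an end, and both of its regions were distal. The gene (chr9:123767211-123783457) is transcribed towards higher coordinates. One region lay 12.7 kb before the start (chr9:123754195-123754767), with a fold enrichment of 8.98, 8.69 and 9.65 from 22, 26 and 36 fragments, a mean of 9.11 ± 0.49 (SD, n = 3). The other lay inside the gene, 2311 bp past the start (chr9:123769312-123769926), with 4.08, 7.42 and 5.47 from 8, 19 and 17 fragments, a mean of 5.66 ± 1.68 (SD, n = 3). In every library the region before the start was the stronger. The inner region rests on few fragments and was lost when only peaks with −log10 q of at least 5 were kept. The genes lay further apart in pileup divided by the library's lowest background. On that scale the strongest region of Ccr9 reached 19.2 ± 1.22 and that of Cxcr4 47.8 ± 3.94 (SD, n = 3), where the median over all reproducible regions was 17.6.

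**Figure D2:**
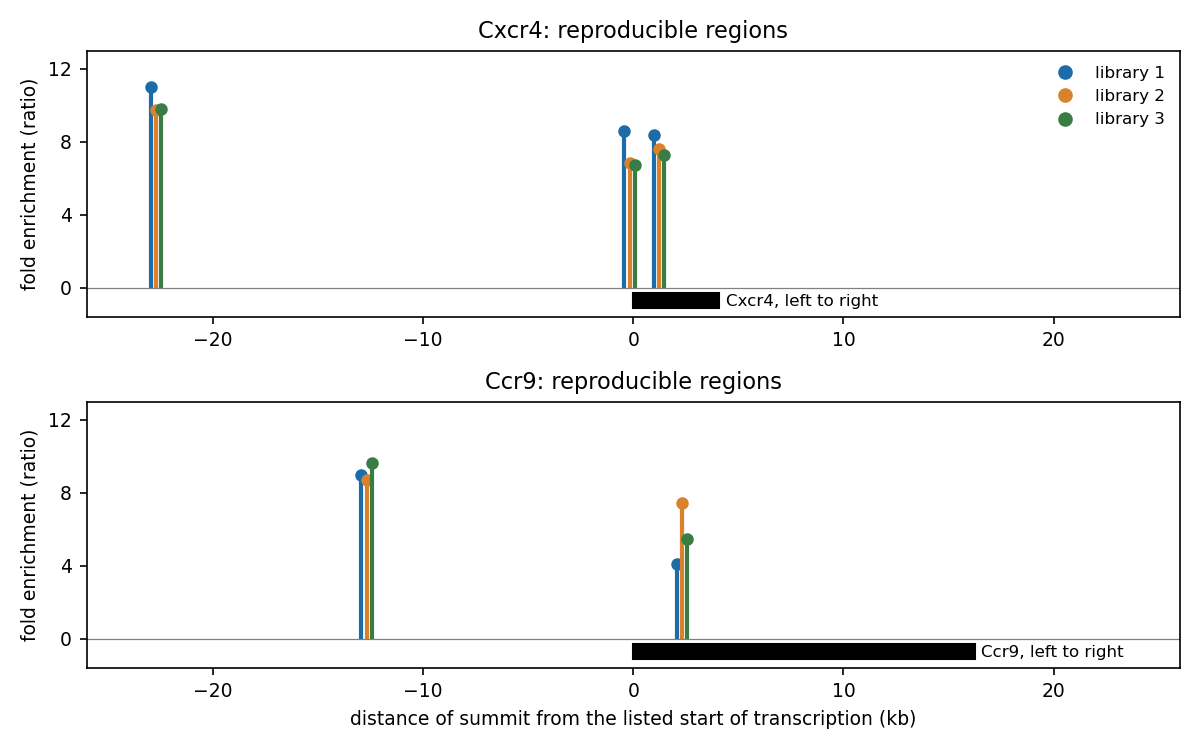
Fold enrichment (ratio) of each reproducible region of Cxcr4 (top) and Ccr9 (bottom) in libraries 1, 2 and 3, against the distance of the summit from the listed start in kb (the 3 libraries are drawn side by side). Both genes run left to right, as black bars. Cxcr4 had regions at and just past its start and 22.7 kb before it, and Ccr9 had none at its start.

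Cxcr3, the receptor of the interferon-induced ligands Cxcl9 and Cxcl10, had the strongest end among the receptors. Its region (chrX:101733182-101734453) spanned the start, with the summit 289 bp inside the gene. The fold enrichment was 8.29, 9.21 and 9.08, from pileups of 43, 66 and 77 fragments, a mean of 8.86 ± 0.50 (SD, n = 3). Ccr1l1, a receptor gene next to Ccr1, had a weaker one (chr9:123986219-123986770) at 3.71, 5.66 and 5.39, from 9, 15 and 19 fragments. The lowest values were those of Cxcr5, which guides B cells to follicles. Its end region (chr9:44510644-44511419) had 3.32, 3.57 and 3.20, and it also lay within 1 kb of an end of the neighbouring gene Bcl9l.

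Cxcr5 and Ccr7 had the most distal regions, 4 and 5, where 3.28% of protein-coding genes had 4 or more and 1.94% had 5 or more. The strongest region of Cxcr5 lay 11.6 kb beyond its higher-coordinate end (chr9:44537516-44538614). Its pileups were 94, 109 and 181 fragments and its fold enrichment 11.6, 10.1 and 11.9, a mean of 11.2 ± 0.94 (SD, n = 3). Of the other 3, 1 lay inside Cxcr5 and 2 inside Bcl9l, with means of 5.91, 2.70 and 3.15. The 2 inside Bcl9l lay 12803 and 2230 bp from an end of Cxcr5, and 12922 and 2349 bp from an end of Bcl9l. Their assignment to Cxcr5 thus rests on a small difference in distance. At Ccr7 the strongest region lay 10.4 kb below the lower-coordinate end (chr11:99133356-99134176). It had 107, 145 and 155 fragments and a fold enrichment of 10.6, 9.99 and 8.33, a mean of 9.65 ± 1.18 (SD, n = 3). By pileup over the library background it was 94.3 ± 12.8 (SD, n = 3), above 98.2% of all reproducible regions. The other regions of Ccr7 had means of 3.30 to 8.11, and the weakest of them (chr11:99132303-99132704) lay just below the strongest. With −log10 q of at least 5, Cxcr5 kept 2 distal regions and Ccr7 4. When peaks had to overlap by 50% of each, Cxcr5 kept 2 and Ccr7 5. With the 10000 strongest peaks of each library, each gene kept 1. Strands of Cxcr5 and Ccr7 were not among the promoters listed, so these regions were not placed before or after a start.

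Other receptors had 1 or 2 distal regions. Ccr1, which responds to Ccl3, Ccl5 and Ccl9, had one 27.3 kb past its start (chr9:123940905-123941709) at 10.1, 9.58 and 9.44, a mean of 9.70 ± 0.33 (SD, n = 3). Ccr3, the eotaxin receptor of eosinophils, had a pair beyond its finish, with means of 9.35 ± 0.72 and 9.30 ± 1.37 (SD, n = 3). Ccr2, the receptor that brings monocytes out of the marrow, had one inside the gene, 1320 bp past its start. That region varied widely, at 5.80, 9.56 and 4.41 in libraries 1, 2 and 3, a mean of 6.59 ± 2.66 (SD, n = 3). Ccr4, Ccr6 and Ccr8 had regions with means of 4.17 to 6.23. Receptors with neither an occupied end nor a distal region included Cxcr1 and Cxcr2, the neutrophil receptors, Cxcr6 and Ccr10.

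**Figure D3:**
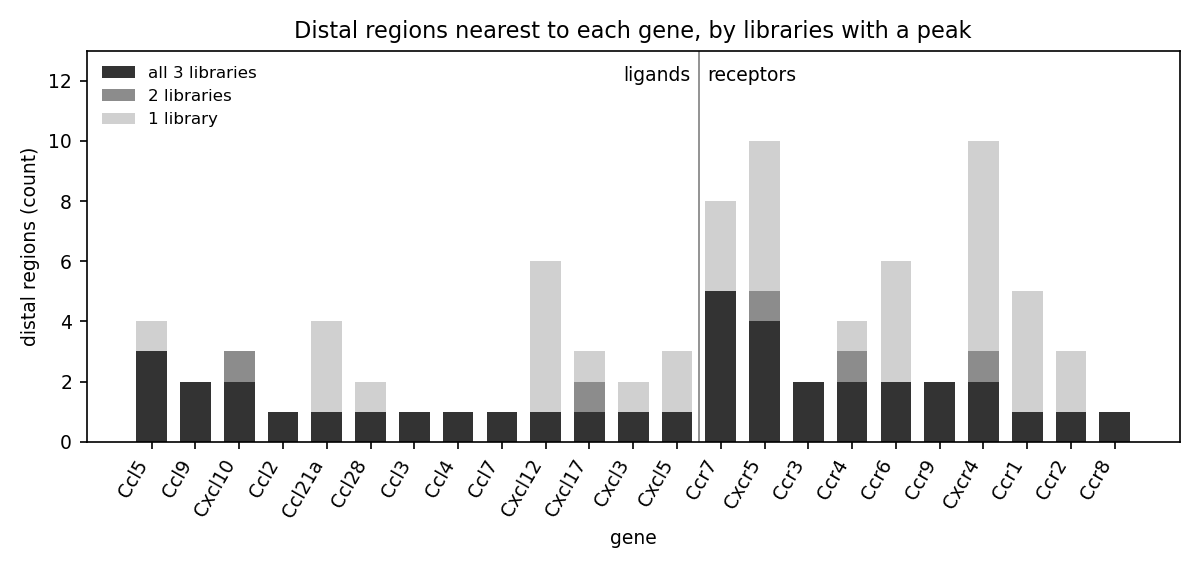
Number of distal regions nearest to each ligand (left) and receptor (right), stacked by whether all 3 libraries, 2 or 1 had a peak; members with no reproducible distal region are left out. Ccr7 (5), Cxcr5 (4) and Ccl5 (3) had the most reproducible ones, and Cxcr4 (7) and Cxcl12 (5) were among those with most regions seen in 1 library.

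Of the ligands, Ccl3 and Ccl4 had the strongest end, a region that they shared. Both are inflammatory ligands, and Ccl3 is also known as an inhibitor of stem cell division. The region (chr11:83648442-83649840) had its summit 238 bp before the start of Ccl3. Its fold enrichment was 8.92, 10.8 and 7.84, from 27, 39 and 36 fragments, a mean of 9.18 ± 1.48 (SD, n = 3). The RefSeq model of Ccl4 reaches across into Ccl3, so the region counted for Ccl4 by its lower-coordinate end alone. A stronger region 9.1 kb past the start of Ccl3 (chr11:83639394-83640907) had 12.3, 12.4 and 11.7, from 55, 70 and 92 fragments, a mean of 12.1 ± 0.37 (SD, n = 3). It was the strongest of all 50 regions by fold enrichment, with little spread between libraries. The region counted as distal for Ccl4 (chr11:83662054-83662774) lay inside that gene, 2398 bp from its higher-coordinate end, at 5.48, 7.41 and 5.01. No start was listed for Ccl4, so neither of its regions was placed against one.

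Cxcl2, which draws neutrophils through Cxcr2, had a region at its start (chr5:90903058-90904175) at 8.83, 8.56 and 8.13, from 25, 33 and 36 fragments, a mean of 8.50 ± 0.35 (SD, n = 3). Its neighbour Cxcl1, with a similar role, had no peak of any library at an end and no distal region. Cxcl3 had peaks of libraries 2 and 3 at its end, with fold enrichments of 4.77 and 4.08. Among constitutive ligands, Ccl27a of the skin had 7.57, 10.1 and 8.56 (chr4:41773223-41774536), a mean of 8.75 ± 1.29 (SD, n = 3). Ccl25, the ligand of Ccr9, had 7.96, 7.58 and 5.80 (chr8:4324777-4325930), a mean of 7.11 ± 1.15 (SD, n = 3). That region also lay within 1 kb of an end of Elavl1, a gene for an RNA-binding protein, so it cannot be given to Ccl25 alone. In the same way the region of Cxcl16 (5.86 ± 0.54, SD, n = 3) was shared with Zmynd15. Ccl24, an eotaxin, had 6.19 ± 0.44, and Ccl17, a ligand of Ccr4, 4.26 ± 0.59 (SD, n = 3). The region of Ccl17 lay at its finish, 1614 bp past the listed start.

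Cxcl12, the ligand of Cxcr4, had no reproducible region at an end. In library 3 alone a peak (chr6:117168516-117168969) lay at its start, with a fold enrichment of 4.05 from 14 fragments. Its single reproducible distal region was 90.3 kb beyond the finish (chr6:117271432-117272076), at 5.13, 4.52 and 6.07 from 12, 12 and 22 fragments. Other distal regions of Cxcl12, 5 in number, had a peak of 1 library each. The receptor and ligand of this pair thus differed in these libraries, with 3 reproducible regions within reach of Cxcr4 and 1 weak one for Cxcl12.

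**Figure D4:**
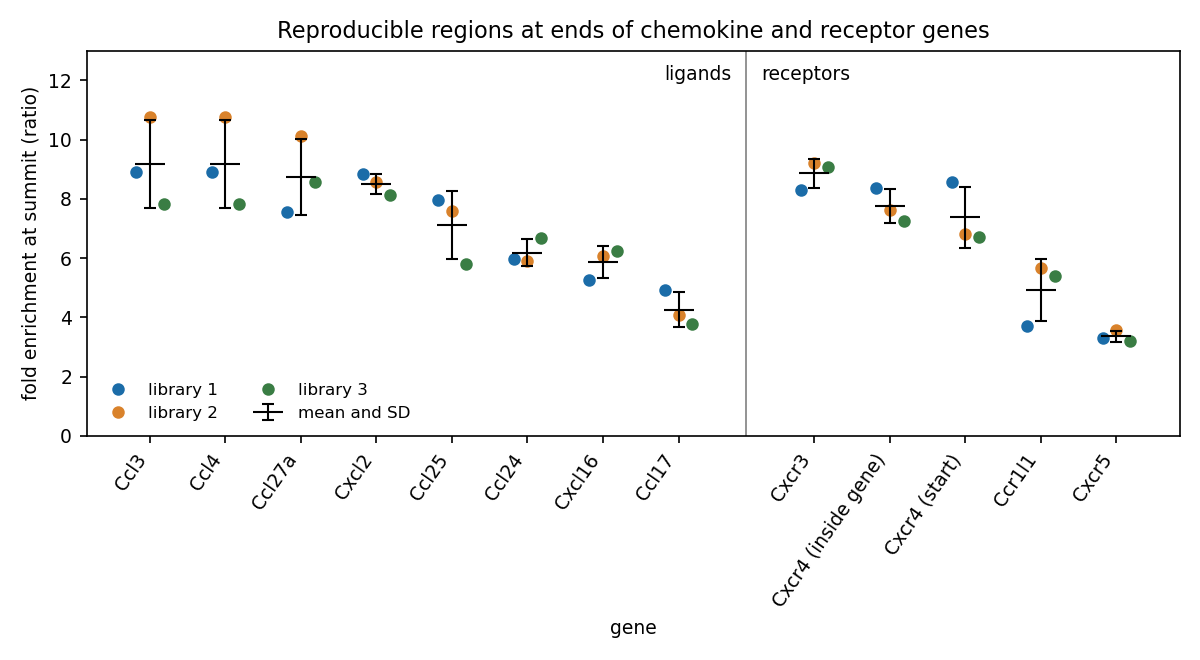
Fold enrichment (ratio) at the summit of each reproducible region at a member's end in libraries 1, 2 and 3 (points), with the mean and SD over the 3 libraries (bars). Ccl3 and Ccl4 share 1 region, and Cxcr4 has 2. Means ran from 3.36 at Cxcr5 to 9.18 at Ccl3 and Ccl4, and the ligand and receptor ranges overlapped.

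Where an end was occupied, its strength was ordinary. The strongest end region of the 12 occupied members had a median fold enrichment of 7.43, against 7.41 over all 9902 occupied genes. Distal regions of members had a median of 5.91, against 5.75 for all assigned distal regions, with 5.57 for ligands and 6.22 for receptors. Of the 39 distal regions, 11 had their summit inside the member's own gene, 3 at ligands and 8 at receptors. The same share was not counted over all genes. Receptor genes are also longer than ligand genes, with a median of 7223 bp against 3660 bp, and both are below the 17219 bp of all protein-coding genes. The median distance of distal regions to the end was 10.7 kb for ligands and 8.38 kb for receptors, against 12.4 kb for all genes.

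Among ligands, the constitutive and inflammatory groups had like shares of occupied ends and unlike numbers of distal regions. Ends were occupied for 3 of 12 constitutive ligands (25%) and 4 of 15 inflammatory ones (26.7%), both below the 45.5% of all genes. Distal regions numbered 3 for the constitutive group, 3.60 per Mb of nearest sequence, and 11 for the inflammatory group, 27.9 per Mb, against 7.66 per Mb for all genes. By genes, 3 of 12 constitutive (25%) and 8 of 15 inflammatory ligands (53.3%) had a distal region, against 28.5% of all. Of these 11 regions, Ccl5 had 3 and Cxcl10 2, and Ccl2, Ccl3, Ccl4, Ccl7, Cxcl3 and Cxcl5 had 1 each. With −log10 q of at least 5, Ccl5 kept 2 and Ccl3, Ccl4 and Cxcl5 kept 1 each, and the rest were lost. Of the constitutive group only the region of Ccl21a was kept. Ccl5, Ccl3 and Ccl4 are neighbours in 1 cluster. Both regions of Cxcl10 had their summits inside the gene Art3. Clusters of neighbouring ligands differed from one another. No density per 100 kb over the whole genome was worked out to set clusters against, so none can be called dense or empty. On chromosome 11, the stretch from Ccl5 to Ccl4 (chr11:83525778-83664683) held 11 reproducible regions in 138.9 kb, 7.92 per 100 kb. The stretch from Ccl2 to Ccl1 (chr11:82035577-82179812), which holds the monocyte ligands Ccl2, Ccl7, Ccl8 and Ccl12, had 1 in 144.2 kb, 0.693 per 100 kb. That single region, between Ccl2 and Ccl7, had a fold enrichment of 4.84, 3.74 and 4.87 from 9, 8 and 14 fragments. None of its 6 genes was occupied, although library 2 had a peak at the lower-coordinate end of Ccl2 (4.42).

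In the Ccl5 to Ccl4 stretch, Ccl5, a ligand of Ccr1, had 3 distal regions. The strongest (chr11:83550150-83550914) stood at 10.7, 10.9 and 6.75, a mean of 9.43 ± 2.32 (SD, n = 3), and library 3 was the low one. A region at the pseudogene Ccl16-ps (chr11:83569033-83569841) had 8.12, 7.79 and 7.50. Ccl9, which acts on Ccr1, had one at 4.77 ± 1.03 and another just inside the gene at 4.53 ± 0.17 (SD, n = 3). Ccl6 had a peak of library 1 alone at its end, at 4.05.

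The receptor cluster on chromosome 9, from Ccr9 to Ccr2 (chr9:123767211-124109140), held 10 reproducible regions in 341.9 kb, 2.92 per 100 kb. The strongest, at 13.3, 11.6 and 13.7, a mean of 12.9 ± 1.13 (SD, n = 3), lay at ends of Xcr1, the receptor of Xcl1 on dendritic cells, and Fyco1 (chr9:123851178-123852229). The only occupied member in the cluster was Ccr1l1. Between Xcr1 and Ccr1, near a noncoding gene, a region of high pileup (chr9:123923213-123925835) had 6.84, 6.85 and 5.68. The Cxcl cluster on chromosome 5, from Cxcl5 to Cxcl2, had 3 regions in 146.6 kb, at Cxcl2, past Cxcl3 and at Pf4. On chromosome 4, the stretch from Ccl27b to Ccl21a had 0 reproducible regions in 123.4 kb, with 3 seen in 2 libraries and 7 in 1. Genes there have near-identical copies, and the sources used here do not give how reads matching several copies were placed, so their values are uncertain.

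**Figure D5:**
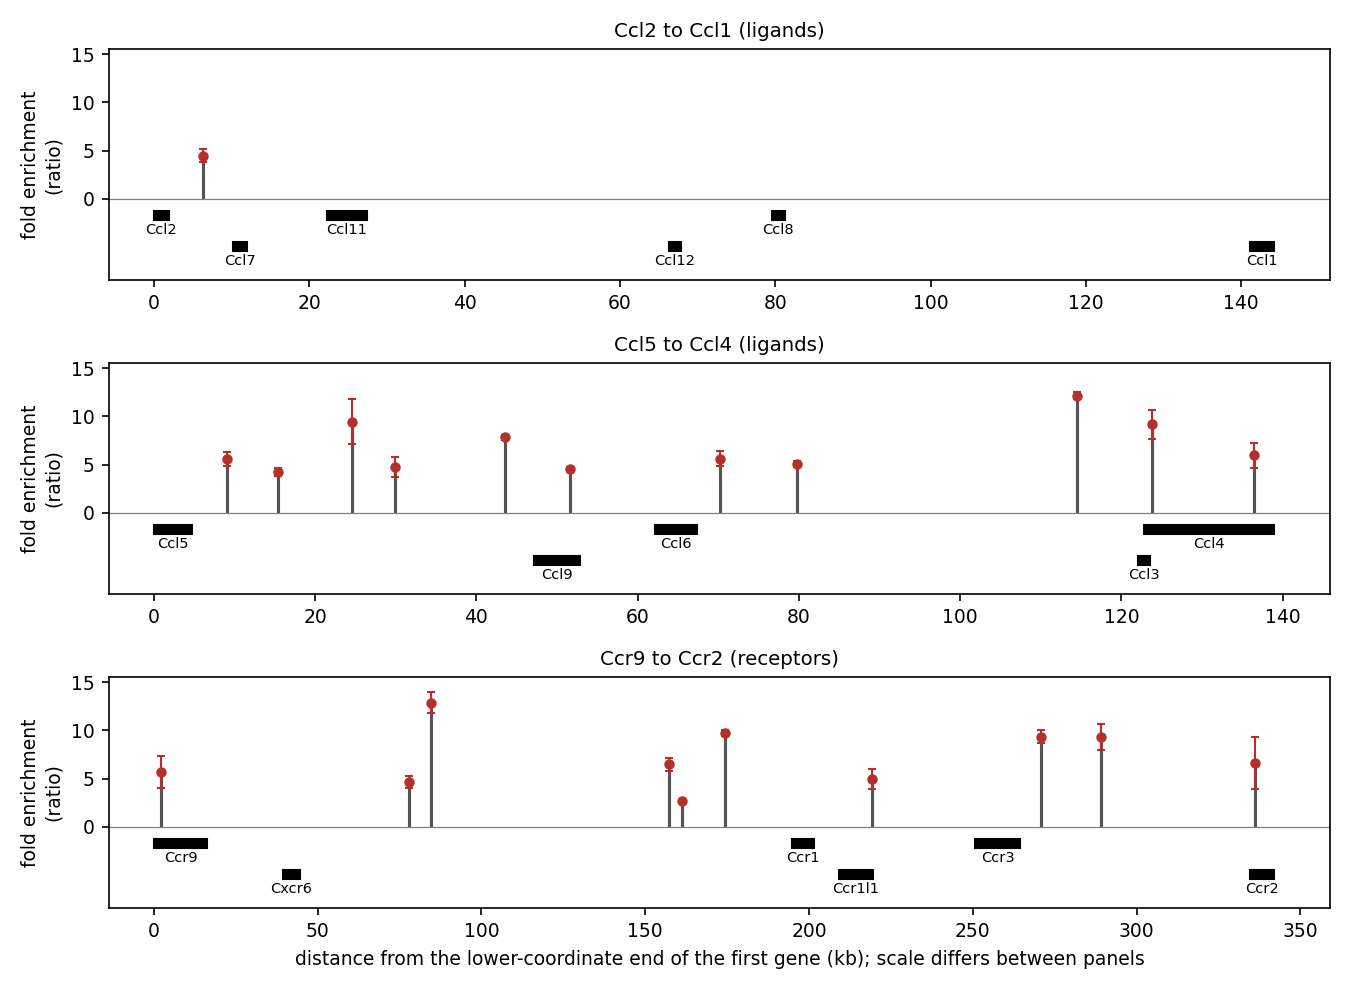
Mean fold enrichment (ratio, points; bars are SD over 3 libraries) of every reproducible region in 3 gene clusters, against the distance in kb from the lower-coordinate end of the first gene; black bars are the member genes. The Ccl2 to Ccl1 stretch had 1 region, the Ccl5 to Ccl4 stretch 11 and the Ccr9 to Ccr2 stretch 10 in 341.9 kb.

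Peaks short of all 3 libraries were found at the ends of 13 more members. Those seen in 2 libraries were at Ccl21b, Ccl27b, Ccl9 and Cxcl3 and at the receptors Ccr1, Ccr10, Ccr4, Ccr7 and Cxcr1. Those seen in 1 were at Ccl2, Ccl21a, Ccl6 and Cxcl12. At Ccr1, libraries 1 and 3 had fold enrichments of 5.80 and 6.79 at its start, from 13 and 19 fragments. At Ccr7, libraries 2 and 3 had 3.88 and 4.42. The peak of Ccr10, at 3.09 and 3.03 in the same libraries, was shared with Cntnap1. The other 28 of the 53 members had no peak of any library at an end, 20 of 36 ligands and 8 of 17 receptors. Among all protein-coding genes 8822 of 21774 had none.

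Promoters of the family were poor in CpG, and this moved with whether they were covered. A promoter window was listed for 39 of the 53 members, 46 windows in all. The median window of members held 3 CpG pairs, against 10 over all promoters. Covered windows had a median of 18 and uncovered ones 4 over all genes, and 7.5 and 3 among members. A reproducible region covered 8 of the 46 member windows (17.4%), against 41.8% of all. These 8 came from 7 genes, as 2 overlapping windows of Ccl27a, with 12 and 6 CpG pairs, lay under 1 region. Among windows with 0 to 3 CpG pairs, classes chosen after seeing the data, 3 of 24 member windows (12.5%) and 4.31% of all windows were covered. With 4 to 9 pairs the counts were 2 of 15 (13.3%) against 25.4%, and with 10 or more 3 of 7 (42.9%) against 70.3%. The covered members with 3 pairs or fewer were Ccl3, Cxcr3 and Ccr1l1. The part of CpG content in the low share of occupied ends was not tested. By the listed starts alone, 4 of 26 ligands (15.4%) and 3 of 13 receptors (23.1%) were occupied, against 46.9% of all genes with a listed start.

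The relatives and the signalling partners of the family had more occupied ends. Of 11 chemokine system genes outside the naming rule, 6 were occupied (54.5%). They were Pf4, the platelet chemokine, at 7.67 ± 0.74, the receptors Xcr1 and Cx3cr1 at 12.9 ± 1.13 and 5.96 ± 0.57, the atypical receptors Ackr2 and Ackr3 at 5.41 ± 0.43 and 4.82 ± 0.55, and Ccrl2 at 4.47 ± 1.25 (SD, n = 3). Ppbp, Cx3cl1, Xcl1, Ackr1 and Ackr4 were not, although Xcl1 had 3 distal regions. Of 28 genes listed for signalling downstream of the receptors, with the protease gene Dpp4 among them, 24 were occupied (85.7%), against the 45.5% of all genes. Gnb2, a G protein subunit, had 15.2 ± 0.81, the receptor kinase gene Grk3 9.79 ± 1.23 and Rgs2, a brake on G protein signalling, 8.12 ± 1.18 (SD, n = 3). Gnai1, Rgs16, Rgs18 and Dpp4, whose product trims Cxcl12, were not occupied. Away from ends, 6 of the 11 relatives (54.5%) and 21 of the 28 genes of the signalling list (75%) had a distal region, at 22.7 and 19.4 per Mb, against 28.5% and 7.66 per Mb for all genes. The receptors had 58.8% and 27.7 per Mb, so distal regions above the level of all genes were shared with these lists.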

How the data were processed

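Flag-Bcl11a CUT&Tag was analysed from 3 libraries of LSK cells. Per the submitters' processing notes, the build was mm10 and the tools were Bowtie2 (alignment), SAMtools and MACS2 (peaks); versions were not among them here. The deposited files list each library's own peaks with coordinates, a score (not used), a fold enrichment (a ratio to local background), −log10 p and −log10 q. The lowest deposited −log10 q was 1.30, a threshold of 0.05. Duplicate removal was not given in the sources used here.

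Peaks on nuclear chromosomes were joined where they shared at least 1 bp. A region's value in a library is that of its strongest peak, and its summit is the median of the libraries' summits. Genes came from a RefSeq table (GRCm38.p6) without rows of unplaced scaffolds. Starts, strands and promoters came from a RefSeq promoter table, which listed 39 of 53 members. No genome sequence was used. The summit pileup was solved from the fold enrichment, read as a ratio of pileup to background with 1 added to each, and from −log10 p, read as a Poisson upper tail. Of the solved pileups, 100% were whole to within 0.05 of a fragment. The lowest background, read as the library's depth, was 1.07, 1.41 and 1.95 fragments per base, so peaks of library 1 rest on fewer fragments.

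There is 1 group and no test: values are counts, means and SDs over 3 libraries, which may be technical replicates. The functions were tested on simulated data. Members and lists were chosen with earlier results of these data known. Values of 1 member and 1 marker gene are not reported here. Named are all occupied members, the 5 with the most distal regions, Cxcr4, Ccr9, Cxcl12, Ccl25 and members with peaks of fewer libraries at an end; further members were named after their values were seen. Alternatives changed the peak threshold, overlap, window, reach and libraries. Python 3.11.15, numpy 2.4.6, pandas 2.3.3, scipy 1.17.1 and matplotlib 3.10.9 were used.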

Additional observations from a re-analysis of the deposited data

How the results depend on the processing

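The number of occupied ligands was 8 (22.2%, against 45.5% of all genes). It was 4 with the 10000 strongest peaks of each library (11.1%, against 20.7% of all genes). By listed starts alone it was 4 of 26 (15.4%, against 46.9%). With a 3 kb window it was 12 (33.3%, against 51%). Leaving out 1 library gave 9 to 10 (25% to 27.8%, against 46.4% to 49%). The number of occupied receptors was 4 (23.5%). It was 2 with −log10 q of at least 5 (11.8%, against 38.3% of all genes). With the 10000 strongest peaks it was also 2 (11.8%, against 20.7%). It was 9 both when 2 libraries sufficed and when the window was 3 kb (52.9%, against 51.8% and 51%). Without 1 library it was 5 to 6 (29.4% to 35.3%, against 46.4% to 49%). Distal regions of ligands numbered 17 (0.472 per gene, against 0.545 for all genes). They fell to 7 with −log10 q of at least 5 (0.194 per gene, against 0.364). With the 10000 strongest peaks they fell to 2 (0.056 per gene, against 0.133). Leaving out 1 library gave 18 to 19 (0.5 to 0.528 per gene, against 0.611 to 0.675). Ligands thus stayed below all genes per gene in these runs. Counts per Mb were worked out for the main setting only. Distal regions of receptors numbered 22 (1.29 per gene). They fell to 7 with the 10000 strongest peaks (0.412 per gene, against 0.133 for all genes). Without Ccr7 and Cxcr5, chosen after seeing the data, there were 13 (0.867 per gene, against 0.545). Without 1 library there were 23 to 24 (1.35 to 1.41 per gene, against 0.611 to 0.675). Per gene, receptors stayed above ligands and above all genes in each alternative run. Cxcr4 had 6 regions with a reach of 200 kb, and 3 to 4 without 1 library. Ccr9 had 1 region with −log10 q of at least 5 and 1 with the 10000 strongest peaks, and 2 without any 1 library. The median end of the occupied members stood at percentile 50.8 among occupied genes, and between 45.0 and 55.5 without 1 library. Where not said, the cause was not tested. Cxcr4, Cxcr3, Ccl3, Cxcl2 and Ccl27a were occupied under each of the 10 alternatives that bear on gene ends. No paired analysis was possible because there is 1 group. Regions resting on 8 to 20 fragments, as at Ccl7 or inside Ccr9, are the least precise here.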

Other observations

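A run shared by promoters of the family was seen on reading the sequences and was not part of the planned search. TGTGGTCA or its reverse TGACCACA, in which the BCL11A and RUNX motifs overlap, stood in 3 of 46 member windows (6.52%), those of Ccl3, Cxcr3 and Ccr1, against 1.02% of 21263 windows in all and 0.901% of the 8882 windows under a reproducible region. Ccl3 and Cxcr3 were occupied in every library, and Ccr1 had peaks of libraries 1 and 3 at its start. It was chosen after its values were seen, so no test was run on it.

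Ccl3 had the region of highest fold enrichment among the members, and its strength barely varied between libraries, whereas Ccl12, Ccl8 and Ccl11 in the Ccl2 to Ccl1 stretch had no peak of any library at an end and no distal region. Among all genes, 8822 of 21774 had no peak of any library at an end, and 9356 had neither an occupied end nor a reproducible distal region.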
